A study of Mus musculus with 2 samples.

Results

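Integrins are cell surface receptors built from 1 alpha and 1 beta chain, and laminins are the basement membrane proteins, built from an alpha, a beta and a gamma chain, that many of them bind. The 37 mouse genes described here are all those in the files whose symbols name an integrin alpha chain (18), an integrin beta chain (8), or a laminin alpha (5), beta (3) or gamma (3) chain, out of 25906 genes measured. The choice used symbols only and no measured value.

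In skeletal muscle, laminin with the alpha2, beta1 and gamma1 chains coats the fibre and its satellite cells, the Pax7-expressing stem cells. The alpha7 beta1 integrin and dystroglycan are its main receptors there, and loss of the alpha2 chain (Lama2) or of Itga7 causes muscular dystrophy. Integrins with alpha4, alpha5, alpha9 or alphav chains bind other ligands, such as Vcam1, fibronectin, tenascin and osteopontin, and the alphav chain pairs with several beta chains.

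The data are 3' tag counts of single cells from 2 libraries of induced myogenic progenitors, muscle precursors obtained by converting fibroblasts, which divide as Pax7+ cells in culture and also form muscle cells. The MyoD-KO library (KO) and the MyoD-WT library (WT) were each made from 1 clone at passage 4, so a difference between the genotypes cannot be told apart from a difference between these clones. Embryonic fibroblasts had been converted by overexpression of the muscle transcription factor Myf6 together with forskolin, RepSox and CHIR99021, and the colonies picked no longer needed Myf6. Both clones carry the strain label Myod1tm1Jae and grew in the same medium with 5 µM forskolin, which raises cyclic AMP, 5 µM RepSox, an inhibitor of the TGF-beta receptor, 3 µM CHIR99021, an inhibitor of GSK3, and 10 ng/mL bFGF.

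The KO library holds 7670 barcodes with 282739488 UMIs (a UMI counts 1 captured RNA molecule) and the WT library 8191 barcodes with 285232252 UMIs, and 14 barcode sequences occur in both. After filtering, 5638 KO and 7316 WT cells remained, with medians of 40426 and 35515 UMIs. Myod1, the targeted gene, was counted at 63.3 CPM in KO against 162 CPM in WT cells, where CPM are UMIs summed over cells and scaled to a total of 1000000. The 3' tags need not lie in the deleted sequence, so this level does not check the label. Each cell took 1 of 4 gates by gene levels that include no integrin or laminin gene. Pax7+ cells numbered 3029 in KO and 4337 in WT. Cells rich in Myog, a factor of committed myocytes (Myog+), numbered 824 in KO and 981 in WT. Cells with at least 1% of UMIs from 11 sarcomere genes (muscle-rich) numbered 1095 in KO and 1247 in WT. Cells with Crabp1 and Dcn transcripts (Crabp1/Dcn+) numbered 164 in KO and 5 in WT, so WT values for that gate are not compared. The remaining 526 KO and 746 WT cells met no gate.

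The promoter windows of 3 members are shown because Itga4 differed between the libraries in all 3 myogenic gates, Itga9 differed in opposite directions and Itgb6 had the largest muscle-rich over Pax7+ ratio of the members that reached 10 CPM. They run from 250 bases before to 50 bases after the RefSeq start site on GRCm38.p6, at chr2:79255176-79255475 for Itga4 (plus strand), chr9:118711442-118711741 for Itga9 (plus strand) and chr2:60722554-60722853 for Itgb6 (minus strand, 1 of its 2 windows). Capitals mark CAGCTG, an E-box sequence that MyoD and myogenin bind, which reads the same on both strands.
Itga4: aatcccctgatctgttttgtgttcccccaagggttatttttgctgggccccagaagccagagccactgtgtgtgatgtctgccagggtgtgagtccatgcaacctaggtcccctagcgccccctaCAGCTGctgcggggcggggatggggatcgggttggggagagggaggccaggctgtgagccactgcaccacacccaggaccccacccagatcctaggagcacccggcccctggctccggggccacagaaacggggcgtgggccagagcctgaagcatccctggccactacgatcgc
Itga9: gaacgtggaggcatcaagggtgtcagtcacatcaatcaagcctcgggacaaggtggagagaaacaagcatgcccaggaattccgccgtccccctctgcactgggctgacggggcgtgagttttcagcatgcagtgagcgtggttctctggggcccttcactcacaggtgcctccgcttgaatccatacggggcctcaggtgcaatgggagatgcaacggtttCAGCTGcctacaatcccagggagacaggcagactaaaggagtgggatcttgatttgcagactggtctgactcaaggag
Itgb6: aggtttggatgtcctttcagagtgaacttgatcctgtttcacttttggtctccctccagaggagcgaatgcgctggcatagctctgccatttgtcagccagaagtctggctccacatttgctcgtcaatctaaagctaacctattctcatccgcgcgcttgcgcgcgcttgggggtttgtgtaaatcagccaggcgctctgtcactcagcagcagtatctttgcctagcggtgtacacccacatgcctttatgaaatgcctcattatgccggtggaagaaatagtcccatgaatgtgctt
CAGCTG starts 125 bases before the start site of Itga4 and 28 bases before that of Itga9, and it is not in either window of Itgb6. Windows were used for 23 of the 37 members, and 8 of these (34.8%) held it, namely Itga1, Itga2b, Itga4, Itga5, Itga9, Itgax, Itgb5 and Lamb3. Of all 27025 genes with a window, 4944 (18.3%) held it. The member windows left out a chromosome that was not left out of the count of all genes. A match in the letters is a description and does not show binding.

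Of the 37 genes, 20 reached 10 CPM in at least 1 gate with 50 or more cells: 7 of the 18 integrin alpha, 6 of the 8 integrin beta, 3 of the 5 laminin alpha, all 3 laminin beta genes and Lamc1. Another 8 stayed under 1 CPM in all these gates. Among those under 10 CPM throughout were the leukocyte integrin genes Itgal, Itgam, Itgax, Itgad and Itgb2, the collagen receptor chains Itga1, Itga2, Itga10 and Itga11, and Lama3, a laminin chain of epithelia. Itgam, encoding CD11b of myeloid cells, was highest at 0.522 CPM in KO against 6.78 CPM in WT muscle-rich cells. The leukocyte marker Ptprc was at 0 in all KO cells and had 3 UMIs in all WT cells. Of the other lists of cell types these cultures could hold, endothelial markers summed to at most 1.71 CPM, epithelial to at most 10.1 CPM and platelet to at most 1.72 CPM over the gates. Fibroblast markers summed to 539 CPM in KO against 91.9 CPM in WT Pax7+ cells, where Col3a1 alone stood at 500 CPM in KO against 88 CPM in WT. Their sums were 190 CPM in KO against 32.6 CPM in WT Myog+ cells, and 53.6 CPM in KO against 20.9 CPM in WT muscle-rich cells. The immune list summed to at most 74.3 CPM in KO against 108 CPM in WT, both in muscle-rich cells, where Fcer1g alone stood at 72.5 CPM in KO cells and at 107 CPM in WT cells. Schwann markers summed to between 3.00 and 48.0 CPM over the KO gates and between 21.3 and 83.7 CPM over the WT gates, most of it Erbb3 where highest. Smooth muscle markers summed to between 124 and 812 CPM over the KO gates and between 773 and 2122 CPM over the WT gates, with the defining Myh11 under 1 CPM in each of these gates with 50 or more cells. The part of these markers in the differences between libraries was not tested.

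**Figure D1:**
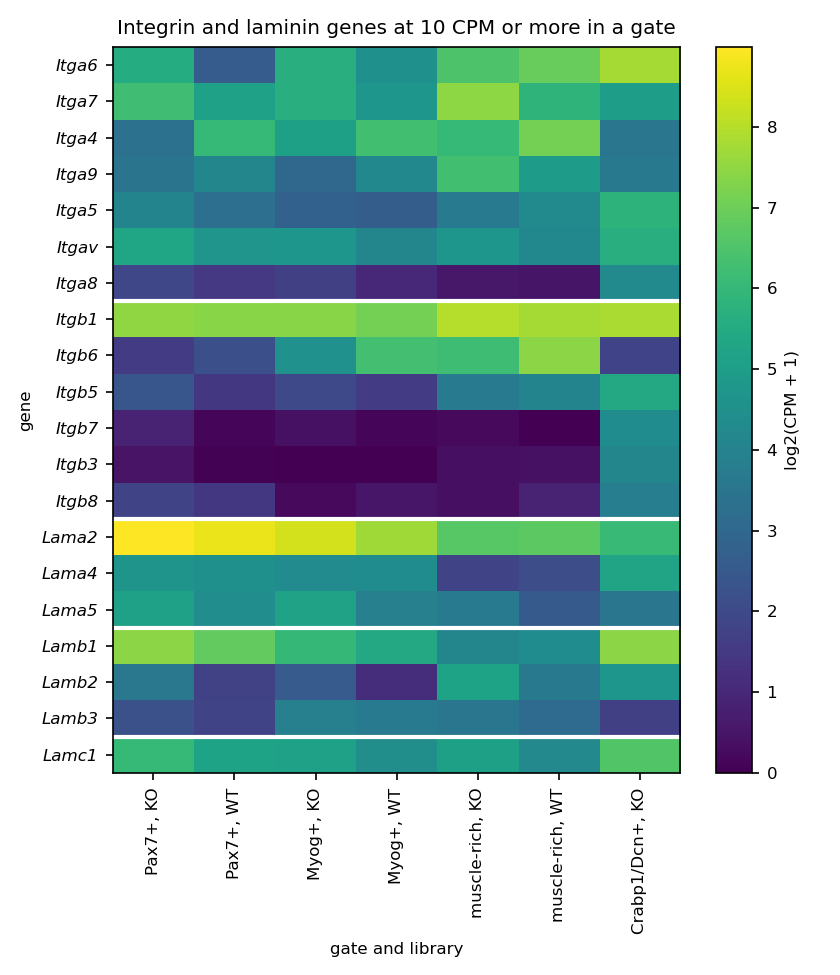
Level of each gene that reached 10 CPM (rows) in each gate of the MyoD-KO and MyoD-WT libraries (columns), as log2(CPM + 1) of UMIs summed over the cells of the gate. Lama2 is the brightest row in Pax7+ cells at 507 CPM in KO against 423 CPM in WT, and Itgb6 is bright only in Myog+ and muscle-rich columns.

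The laminin genes of the Pax7+ cells were those of the muscle basement membrane. Lama2 supplied 89.6% of all laminin alpha UMIs in KO and 90.9% in WT Pax7+ cells. Lamb1 supplied 92.0% of the laminin beta UMIs in KO and 95.8% in WT Pax7+ cells. These shares count tags, 1 per captured molecule whatever its length, and their counting error is under 1 percentage point. The other alpha chains measured were Lama4, found in vessels and nerve, and Lama5, a chain of many embryonic and adult basement membranes.

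Of the 7 laminin genes that reached 10 CPM, 4 were at least 2-fold lower in muscle-rich than in Pax7+ cells of both libraries, as were 32.6% of all genes with 10 CPM or more in either gate in KO and 26.6% in WT. Lama2 averaged 507, 327 and 99.9 CPM in Pax7+, Myog+ and muscle-rich cells of KO, and 423, 206 and 104 CPM in those of WT. Lamb1 stood at 171, 61.8 and 16.3 CPM in the same gates of KO and at 112, 42.1 and 19.7 CPM in WT. Both genes thus descended through the gates in each library, with Lamb1 lower in muscle-rich than in Pax7+ cells by a ratio of 0.0953 in KO and 0.176 in WT. Lama4 stood at 23.9, 19.4 and 2.55 CPM in KO and at 22.0, 19.5 and 3.41 CPM in WT. Lama5 stood at 34.5, 35.0 and 12.2 CPM in KO and at 20.1, 14.1 and 4.84 CPM in WT. Lamc1, the gamma chain of most laminins, stood at 63.6, 34.8 and 33.8 CPM in KO and at 35.8, 20.9 and 17.97 CPM in WT, and its muscle-rich over Pax7+ ratios of 0.531 and 0.501 stayed just short of 2-fold. With TMM scaling, which sets the bulk of genes equal, its log2 ratio was -0.43 in KO and -0.64 in WT, further from 2-fold.

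Lamb2 and Lamb3 went the other way. Lamb2, the beta chain enriched in the synaptic basement membrane of muscle, stood at 11.2, 4.92 and 36.3 CPM in Pax7+, Myog+ and muscle-rich cells of KO and at 2.30, 1.25 and 11.5 CPM in WT. In both libraries it was lowest in Myog+ cells and highest in muscle-rich cells. It supplied 57.4% (95% interval 55.7 to 59.2) of the laminin beta UMIs of KO muscle-rich cells, while in WT muscle-rich cells Lamb1 still led with 50.4% (48.2 to 52.6). Lamb3 stood at 3.72, 14.1 and 10.6 CPM in KO and at 2.60, 12.3 and 7.84 CPM in WT, highest in Myog+ cells in each. Lama3, an epithelial partner of Lamb3, stayed under 10 CPM in every gate.

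**Figure D2:**
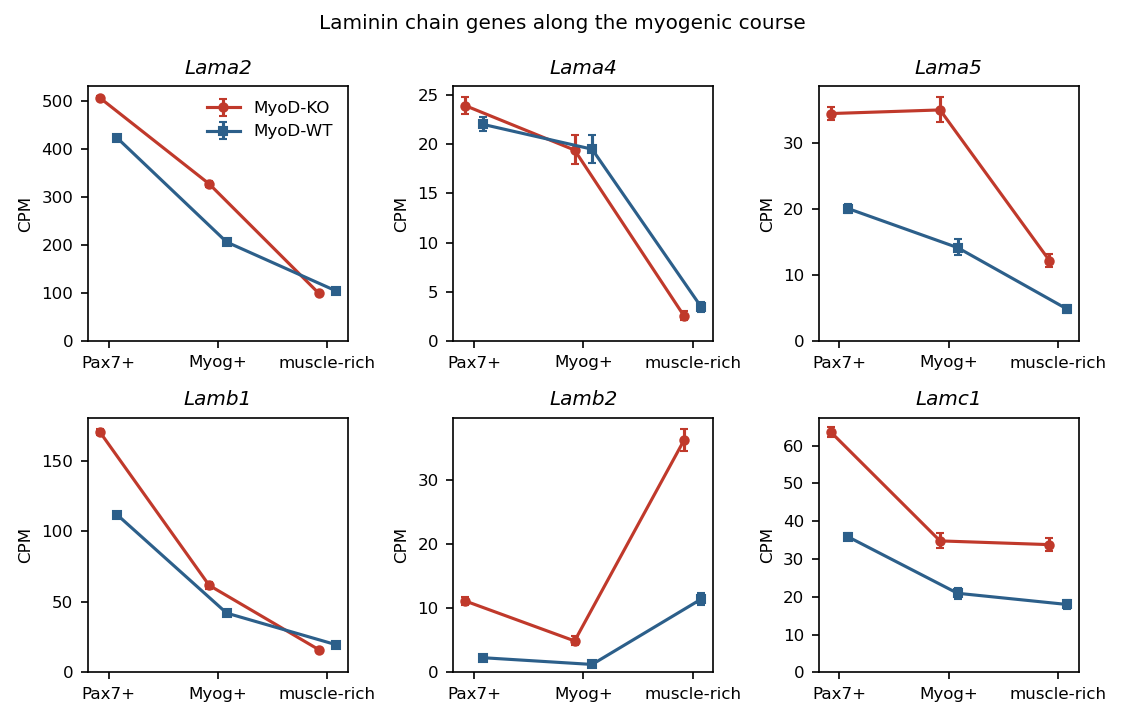
Level in CPM (linear axis) of laminin genes in Pax7+, Myog+ and muscle-rich cells, with KO as circles and WT as squares. Bars give the 95% Poisson interval, which covers counting error only. Lama2 and Lamb1 descend in both libraries, and Lamb2 ends above its Pax7+ level at 36.3 CPM in KO against 11.5 CPM in WT.

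Among integrin beta chains, Itgb1, the partner of most alpha chains, led everywhere, at 178, 166 and 254.5 CPM in Pax7+, Myog+ and muscle-rich cells of KO and at 168, 137 and 216 CPM in WT. Its muscle-rich over Pax7+ log2 ratio was 0.52 in KO and 0.37 in WT, and with TMM scaling 1.00 in KO and 0.72 in WT. Its share of all integrin beta UMIs was nevertheless smaller in later gates, at 91.8%, 85.8% and 74.9% in KO and 95.8%, 63.0% and 53.5% in WT. In Myog+ and muscle-rich cells the next was Itgb6, an epithelial chain that pairs with alphav and activates latent TGF-beta. In KO Pax7+ cells Itgb4, Itgb5 and Itgb8 stood above it, with 696, 556 and 337 UMIs against 262 for Itgb6. Itgb4, the alpha6 partner of epithelia, stayed under 10 CPM in every gate, with 917 UMIs in all kept KO cells against 36 in WT. Itgb6 stood at 2.05, 22.2 and 71.7 CPM in KO and at 3.63, 77.6 and 171 CPM in WT, the largest stage difference of the genes that reached 10 CPM, with muscle-rich over Pax7+ ratios of 35.0 (30.9 to 39.9) in KO and 47.1 (43.4 to 51.2) in WT. Its partner Itgav did not follow it, at 38.5, 25.3 and 25.7 CPM in KO and 24.5, 16.3 and 17.2 CPM in WT. Itgb5, another alphav partner, stood at 4.34, 2.94 and 11.6 CPM in KO and at 1.74, 2.05 and 15.7 CPM in WT, and was more than 2-fold higher in muscle-rich than in Pax7+ cells of both.

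The Itgb6 signal came from many cells. After each cell was thinned to 5000 UMIs, an Itgb6 UMI was found in 0.893%, 8.74% and 22.1% of Pax7+, Myog+ and muscle-rich cells in KO and in 1.73%, 28.2% and 47.1% of those in WT. Without thinning the shares were 7.07%, 32.8% and 63.7% in KO and 9.94%, 65.0% and 83.8% in WT. The level in Pax7+ cells was 2.85% of that in muscle-rich cells in KO and 2.12% in WT. For comparison, Acta1, a sarcomere gene, had 1.28% of its muscle-rich level in KO and 0.944% in WT Pax7+ cells, and whether RNA carried between droplets contributes to the low Pax7+ value of Itgb6 was not tested. Median depths before thinning were 38976, 41876 and 48280 UMIs per cell in Pax7+, Myog+ and muscle-rich cells of KO and 36085, 35491 and 38138 in those of WT. Within Myog+ cells, Itgb6 was at 27.1 CPM in KO against 98.1 CPM in WT where Pax7 was under 50 CPM of the cell, and at 8.59 CPM in KO against 49.1 CPM in WT where Pax7 was above it.

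Of the integrin alpha chains, Itga4, which with beta1 binds Vcam1 and fibronectin, stood at 9.32, 33.9 and 63.8 CPM in Pax7+, Myog+ and muscle-rich cells of KO and at 64.1, 76.7 and 137 CPM in WT, ascending in each. Itga6, a laminin receptor chain, stood at 46.6, 48.4 and 88.2 CPM in KO and at 5.17, 21.7 and 119 CPM in WT. The WT library thus had a 23.0-fold (21.4 to 24.8) step in Itga6 between Pax7+ and muscle-rich cells, against 1.90-fold (1.82 to 1.97) in KO, whose log2 ratio of 0.92 was 1.40, past 2-fold, with TMM scaling. The difference between these 2 steps was not tested. Itga7, the muscle laminin receptor chain, stood at 74.7, 49.8 and 175 CPM in KO and at 34.3, 25.5 and 56.3 CPM in WT, lowest in Myog+ cells of each. Itga9, a receptor chain for tenascin, Vcam1 and osteopontin, stood at 10.0, 7.03 and 75.3 CPM in KO and at 16.3, 17.2 and 30.5 CPM in WT. Itga5, the fibronectin receptor chain, stood at 15.7, 5.95 and 12.1 CPM in KO and at 8.65, 5.27 and 18.8 CPM in WT.

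**Figure D3:**
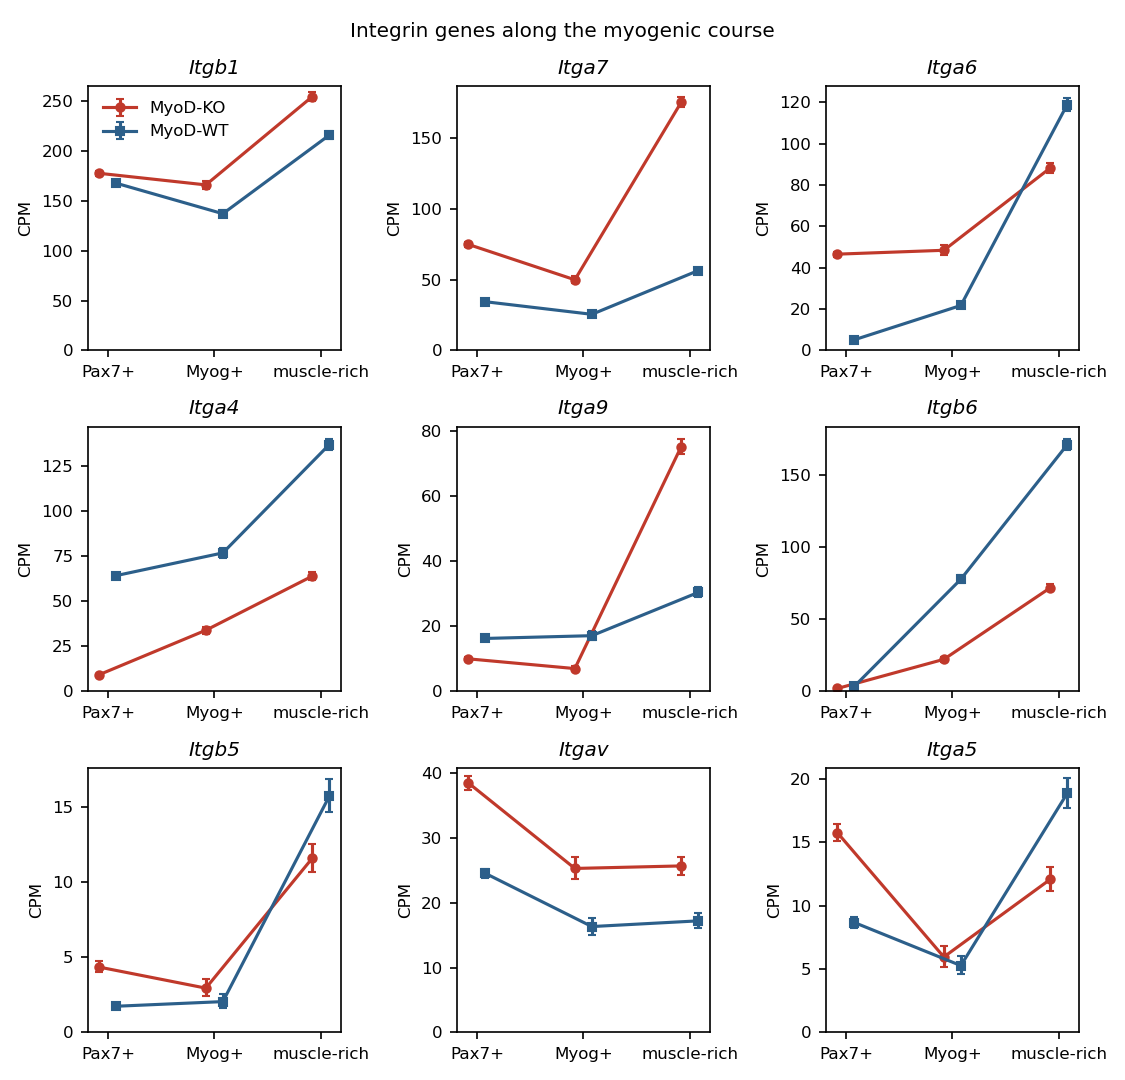
Level in CPM (linear axis) of integrin genes in Pax7+, Myog+ and muscle-rich cells, with KO as circles and WT as squares. Bars give the 95% Poisson interval. Itgb6 and Itga4 ascend in both libraries, and Itga6 begins at 46.6 CPM in KO against 5.17 CPM in WT.

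Genes passed as higher or lower if the 2 sums lay at least 2-fold apart and the larger one reached 10 CPM. In all such counts, members and genes measured, and shares of all genes, cover only genes whose larger sum reached 10 CPM. A gene that reached 10 CPM in only 1 of the 2 groups could pass only as higher in that group. No test applies, because each genotype has 1 library and cells are not replicates, and the same rule over all genes gives the background. In Myog+ over Pax7+ cells, 6 of 15 members measured passed in KO, where 14.1% of all genes did (5.06% higher, 9.05% lower). In WT 5 of 13 passed, where 9.87% of all genes did (4.7% higher, 5.17% lower). Itgb6 and Lamb3 were higher and Lamb1 lower in both. Itga4 was also higher and Itga5 and Lamb2 lower in KO, and Itga6 was higher and Lama2 lower in WT. In muscle-rich over Pax7+ cells, 11 of 16 passed in KO, 7 higher and 4 lower, against 44.2% of all genes (11.6% higher, 32.6% lower). In WT 10 of 15 passed, 6 higher and 4 lower, against 38.8% (12.2% higher, 26.6% lower). Itga4, Itgb5, Itgb6 and Lamb2 were higher and Lama2, Lama4, Lama5 and Lamb1 lower in both. Itga7, Itga9 and Lamb3 were also higher in KO, and Itga5 and Itga6 in WT. Both stage comparisons share the Pax7+ cells of their library. Over the 16 KO and 15 WT members measured, the median log2 ratio for muscle-rich over Pax7+ cells was 0.72 in KO and 0.71 in WT. That of all genes measured was -0.52 and -0.47. In both libraries Itgb5 and Itgb6 reached 10 CPM only in muscle-rich cells, and Lama4 only in Pax7+ cells. The medians thus depend on which members were measured and do not describe all 37.

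Dividing the muscle-rich cells by their sarcomere share showed how these genes varied inside the gate. Itga6 was at 238, 133, 75.3 and 33.5 CPM in KO cells with sarcomere shares of 1 to 2%, 2 to 4%, 4 to 8% and above 8%, and Itgb6 at 138, 84.0, 70.5 and 31.1 CPM. Both therefore descended in KO as the share grew. WT cells, with under 20 in the last bin, gave 114, 132 and 105 CPM for Itga6 and 149, 191 and 158 CPM for Itgb6 in the first 3 bins, with no such descent. Itga9 ascended over the first 3 bins of both, at 9.34, 67.3 and 83.0 CPM in KO and 20.01, 30.2 and 38.1 CPM in WT, and stood at 72.8 CPM in the last KO bin. Itga4 also ascended over these bins, at 21.3, 51.9 and 69.2 CPM in KO and 82.3, 130 and 184 CPM in WT, and stood at 68.4 CPM in the last KO bin. Lama2 descended throughout, at 180, 129, 96.8 and 41.4 CPM in KO and 184, 101 and 54.4 CPM in WT. The bins hold 55, 162, 717 and 161 KO cells and 238, 526 and 471 WT cells, with median sarcomere shares of 5.85% and 3.50% over the whole gate in KO and WT.

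**Figure D4:**
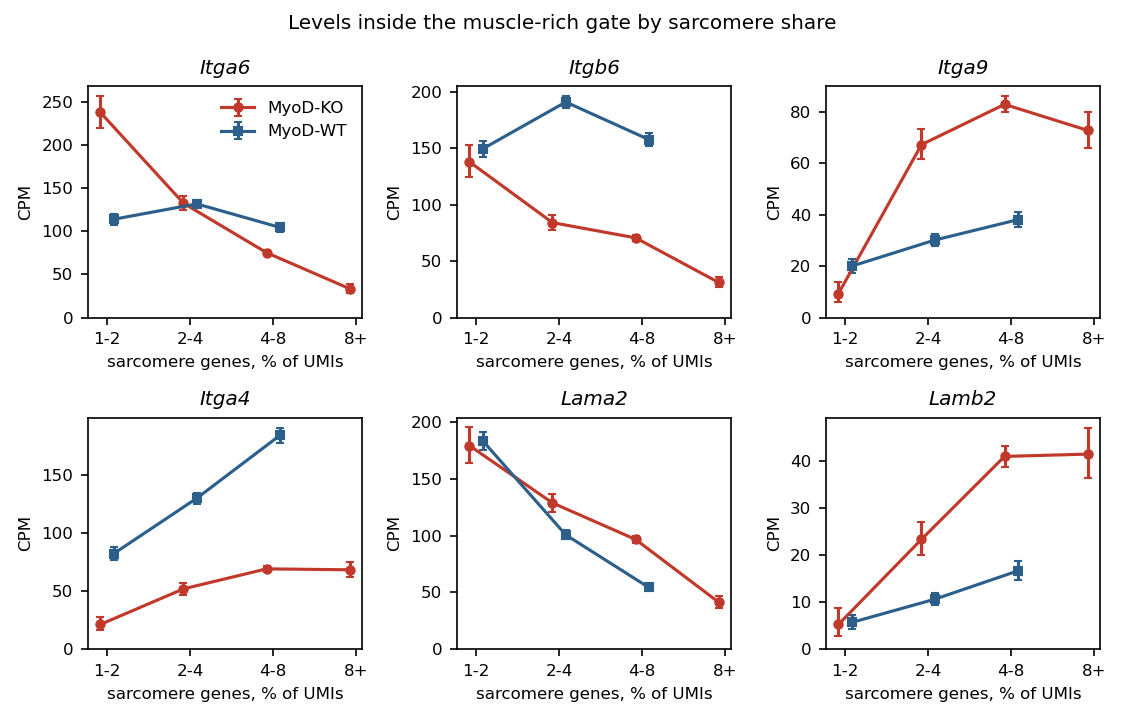
Level in CPM of selected integrin and laminin genes in muscle-rich cells binned by the percentage of their UMIs from 11 sarcomere genes, with KO as circles and WT as squares and bars for the 95% Poisson interval. Itga6 is lower in each further KO bin, at 238, 133, 75.3 and 33.5 CPM, while WT stays between 105 and 132 CPM.

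In KO over WT cells, 4 of 13 members measured in Pax7+ cells passed the rule, 3 higher and 1 lower, where 17.8% of all genes passed (13.8% higher, 4.05% lower). In Myog+ cells 5 of 13 passed, 2 higher and 3 lower, against 15.2% of all genes (11.2% higher, 4% lower). In muscle-rich cells 6 of 15 passed, 4 higher and 2 lower, against 16.9% (10.5% higher, 6.44% lower), and in all kept cells together 5 of 14, 3 higher and 2 lower, against 16.7% (13.3% higher, 3.4% lower). The median log2 ratio of the members measured was 0.65, 0.55 and 0.24 in Pax7+, Myog+ and muscle-rich cells, against 0.08, 0.11 and 0.02 for all genes measured. These include genes that reached 10 CPM in 1 library only, such as Itga6 (KO) and Itga4 (WT) in Pax7+ cells. Itga4 was lower in KO in all 3 gates, with ratios of 0.145 (0.137 to 0.154), 0.442 (0.413 to 0.472) and 0.467 (0.448 to 0.487). After thinning, an Itga4 UMI was found in 4.40% of KO and 25.01% of WT Pax7+ cells, and without thinning in 19.9% of KO and 72.3% of WT. Itga6 was 9.01-fold (8.39 to 9.69) higher in KO Pax7+ cells and 2.23-fold (2.05 to 2.42) higher in KO Myog+ cells (log2 0.41 with doubled gate thresholds and 0.97 with TMM scaling, both under the rule), and its ratio in muscle-rich cells was 0.742 (0.713 to 0.771). Inside the muscle-rich gate Itga6 was at 238 CPM in KO against 114 CPM in WT in the 1 to 2% sarcomere bin. In the 2 to 4% bin it was at 133 CPM in KO against 132 CPM in WT, and in the 4 to 8% bin at 75.3 against 105 CPM. Over all kept cells Itga6 stood at 64.2 CPM in KO against 28.8 CPM in WT, a log2 ratio of 1.16, which was 0.33 when the 3 gates were given equal weight.

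Itga7 was higher in KO Pax7+ cells by 2.18-fold (2.11 to 2.25; log2 0.92, under the rule, with TMM scaling) and in KO muscle-rich cells by 3.11-fold (2.98 to 3.24), and was 1.96-fold (1.81 to 2.12) higher in Myog+ cells, just under the rule. Itgb6 was lower in KO Myog+ cells, with a ratio of 0.286 (0.264 to 0.309), and in KO muscle-rich cells, with 0.420 (0.404 to 0.437). By sarcomere share it was at 138 CPM in KO against 149 CPM in WT in the 1 to 2% bin. In the 2 to 4% bin it was at 84.0 CPM in KO against 191 CPM in WT, and in the 4 to 8% bin at 70.5 against 158 CPM. Of the laminin genes, Lamb2 was 4.86-fold (4.34 to 5.45) higher in KO Pax7+ cells and 3.16-fold (2.88 to 3.47) higher in KO muscle-rich cells. In the 1 to 2%, 2 to 4% and 4 to 8% sarcomere bins Lamb2 was at 5.23, 23.3 and 40.9 CPM in KO. The same bins of WT had 5.66, 10.6 and 16.6 CPM. Lama5 was 2.48-fold (2.24 to 2.74) higher in KO Myog+ cells and 2.52-fold (2.17 to 2.93) higher in KO muscle-rich cells. Itga9 differed in direction between gates, with a KO over WT ratio of 0.410 (0.353 to 0.475) in Myog+ cells and 2.47 (2.33 to 2.63) in muscle-rich cells, where the log2 ratio was 0.98, under the rule, with cells weighted equally. In the 1 to 2% sarcomere bin Itga9 was at 9.34 CPM in KO against 20.01 CPM in WT, and in the 2 to 4% bin at 67.3 CPM in KO against 30.2 CPM in WT. The most abundant members, Lama2 and Itgb1, did not pass the rule in any gate, with Lama2 at a ratio of 1.20 and Itgb1 at 1.06 in Pax7+ cells.

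**Figure D5:**
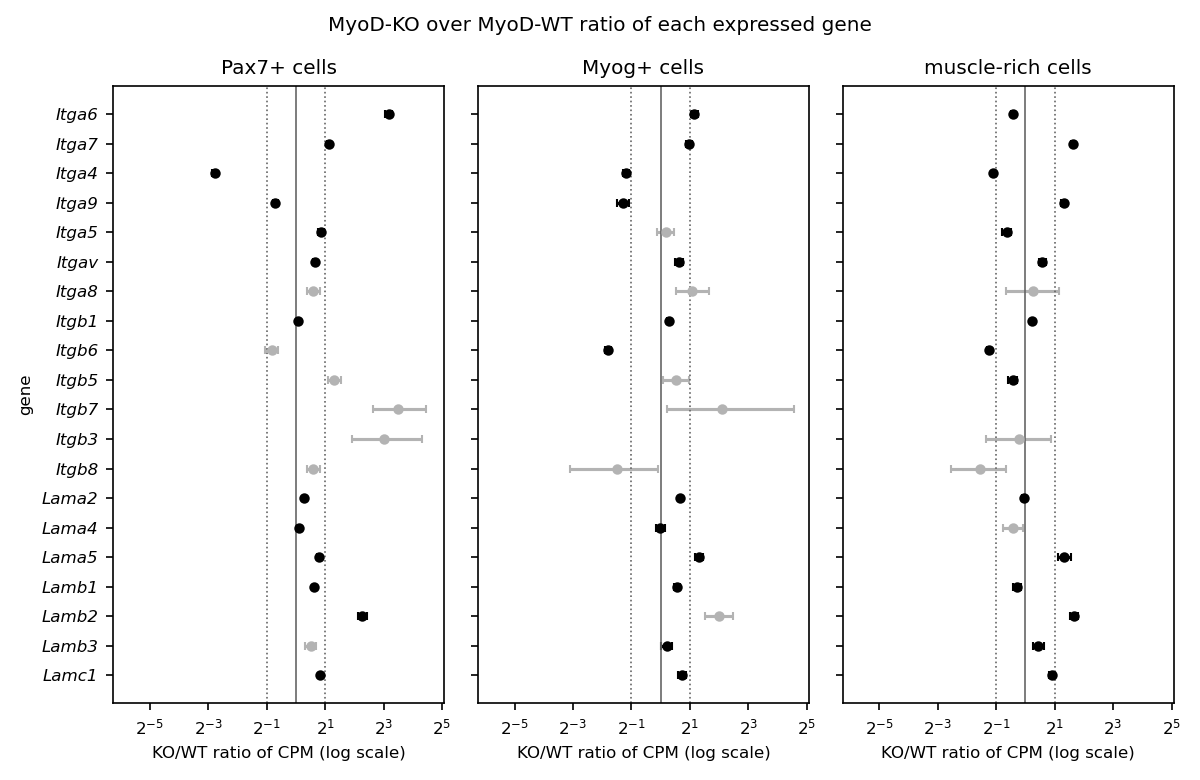
KO over WT ratio (log2 axis) of each gene that reached 10 CPM in a gate, in Pax7+, Myog+ and muscle-rich cells, with 95% exact conditional intervals and dotted lines at 2-fold. Grey points had under 10 CPM in both libraries. Itga4 lies left of the lower line in all 3 panels, with a ratio of 0.145 in Pax7+ cells.

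Pax7+ cells were also divided by proliferation genes. Where the proliferation genes Mki67 and Top2a were at 100 CPM of the cell or more, Lama2 was at 473 CPM in KO against 416 CPM in WT, and in the other Pax7+ cells at 606 CPM in KO against 489 CPM in WT. Itga4 was at 9.08 CPM in KO against 65.7 CPM in WT proliferating cells, and at 10.0 CPM in KO against 48.8 CPM in WT in the others. Itga6 was at 46.3 CPM in KO against 4.79 CPM in WT proliferating cells, and at 47.4 CPM in KO against 8.89 CPM in WT in the others. Itga4 was thus lower and Itga6 higher in KO in both subsets.

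The 164 Crabp1/Dcn+ cells of the KO library had a different set of these genes from its Pax7+ cells. Their Crabp1 level was 3997 CPM, Col3a1 was at 1387 CPM and Dcn at 485 CPM, and 4 of 8 fibroblast markers reached 10 CPM, but Col1a1 was at 7 CPM and Col1a2 at 0, so a fibroblast name is not applied. Of 18 members at 10 CPM or more in either gate, 11 passed the rule against Pax7+ cells, 8 higher and 3 lower. By the same rule 27.9% of all genes passed (11.2% higher, 16.7% lower). Of the 8 higher, Itga8, Itgb3, Itgb5, Itgb7 and Itgb8 reached 10 CPM in Crabp1/Dcn+ cells only, so they could pass only as higher. Itga6 led the alpha chains with 217 CPM against 46.6 CPM in Pax7+ cells and supplied 53.5% of alpha UMIs. Itga5 was at 54.9 CPM against 15.7 CPM and Itga8, the chain that binds nephronectin, at 18.8 CPM against 2.72 CPM. Among the beta chains, Itgb3 was at 16.3 CPM against 0.390 CPM, Itgb5 at 41.5 CPM against 4.34 CPM, Itgb7 at 19.8 CPM against 0.874 CPM and Itgb8 at 13.3 CPM against 2.63 CPM. Itgb3, Itgb5 and Itgb8 pair with alphav, whose gene Itgav was at 50.5 CPM against 38.5 CPM, and Itgb7 pairs with alpha4 or alphaE. The alphaE gene Itgae had 0 UMIs in Crabp1/Dcn+ cells, and Itga4 was at 10.6 CPM against 9.32 CPM. In the 154 Crabp1/Dcn+ cells with under 1% sarcomere UMIs, Itga4 was at 3.84 CPM, with 28 of its 85 UMIs.

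After thinning, an Itgb3 UMI was found in 7.45% of Crabp1/Dcn+ and 0.265% of Pax7+ KO cells, and an Itgb7 UMI in 9.94% of Crabp1/Dcn+ and 0.529% of Pax7+ KO cells. Without thinning, at median depths of 45459 and 38976 UMIs, the Itgb3 shares were 40.9% in Crabp1/Dcn+ and 1.22% in Pax7+ cells, and the Itgb7 shares 45.1% and 3.24%. The laminin chains of the Crabp1/Dcn+ cells differed too. Lama2 was at 66.3 CPM against 507 CPM in Pax7+ cells, a ratio of 0.131 (0.120 to 0.142), and Lama5 at 10.5 CPM against 34.5 CPM. Itga7 was likewise lower, at 31.6 CPM against 74.7 CPM. Lamb2 was 2.27-fold (1.95 to 2.63) higher, and Lamb1 and Lamc1 did not pass, at 172 CPM against 171 CPM and 93.0 CPM against 63.6 CPM. Acta1 was at 1253 CPM in this gate and 213 CPM in Pax7+ cells. Of the 164 cells, 10 had at least 1% sarcomere UMIs, and without them 11 members still passed. The 5 WT cells in this gate had 19 Itga6 UMIs, or 89.97 CPM, and 60 Lama2 UMIs, or 284 CPM, and are not compared.

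The 526 KO and 746 WT cells that met no gate were compared in the same way, and 7 of 14 members passed the rule, 5 higher and 2 lower, where 21.2% of all genes passed (16.7% higher, 4.55% lower). Itga6 was at 85.4 CPM in KO against 8.10 CPM in WT, Itga4 at 13.8 CPM in KO against 56.6 CPM in WT, and Lamb2 at 15.2 CPM in KO against 4.09 CPM in WT. Itga5, Itga7 and Lamc1 were also higher in KO, and Itga9 lower. Smooth muscle markers summed to 179.8 CPM in KO against 1050.3 CPM in WT ungated cells, with Myh11 at 0.105 CPM in KO against 10.6 CPM in WT, where it had 233 of the 295 UMIs of all WT cells. Their part in these differences was not tested.

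Genes that act beside these chains were counted by list over all kept cells, where 16.7% of all genes passed in KO over WT (13.3% higher, 3.4% lower). The lists were chosen with earlier results of these data known, so their shares are descriptions only, here and in the stage comparisons. Of the ligand and partner list, 13 of 20 measured genes (65%) passed, 12 higher and 1 lower. Vcam1, the Itga4 and Itga9 ligand, was at 30.6 CPM in KO against 0.0824 CPM in WT, and Spp1, encoding osteopontin, at 2333 CPM in KO against 34.0 CPM in WT. Edil3, an alphav integrin ligand, was at 16.7 CPM in KO against 0.355 CPM in WT, and Tgfb1 at 11.8 CPM in KO against 0.774 CPM in WT. Spp1 was at 42786 CPM in KO Crabp1/Dcn+ cells, so its all-cell level depends in part on that gate. It was also higher in KO outside that gate. The levels were 594 CPM in KO against 17.6 CPM in WT Pax7+ cells and 215 CPM in KO against 3.55 CPM in WT Myog+ cells. Muscle-rich cells had 168 CPM in KO against 12.0 CPM in WT, and ungated cells 6705 CPM in KO against 228 CPM in WT. Of the basement membrane and laminin receptor list, 5 of 21 measured (23.8%) passed, all higher in KO, among them Nid1, encoding the laminin-binding nidogen, at 42.6 CPM in KO against 1.498 CPM in WT, and Col18a1 at 316 CPM in KO against 50.02 CPM in WT. Of the adaptor list, which links integrins to actin, 3 of 24 (12.5%) passed, all higher in KO, led by Tns1 at 30.2 CPM in KO against 7.32 CPM in WT. The shares of the basement membrane and adaptor lists lie near that of all genes.

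In muscle-rich over Pax7+ cells, where 44.2% of all genes passed in KO (11.6% higher, 32.6% lower) and 38.8% in WT (12.2% higher, 26.6% lower), the adaptor list had 7 higher and 6 lower of 24 measured in KO, and 9 higher and 3 lower of 23 in WT. These are 54.2% in KO and 52.2% in WT. Itgb1bp2, encoding the muscle beta1-binding protein melusin, was at 325 CPM in muscle-rich and 7.51 CPM in Pax7+ cells of KO, and at 249 CPM and 5.90 CPM in WT. Kank1, encoding a talin-binding protein, was at 49.7 CPM against 1.45 CPM in KO and 40.2 CPM against 0.390 CPM in WT. The basement membrane list had 4 higher and 8 lower of 22 measured in KO, and 3 higher and 5 lower of 20 in WT, or 54.5% in KO and 40% in WT. Dmd, encoding dystrophin, was at 688 CPM in muscle-rich and 9.99 CPM in Pax7+ cells of KO, and at 867 CPM and 27.5 CPM in WT, while Col15a1 was lower in both, at 18.3 CPM against 229 CPM in KO and 12.2 CPM against 75.4 CPM in WT. The ligand and partner list had 1 higher and 11 lower of 19 in KO, and 3 higher and 5 lower of 16 in WT, or 63.2% in KO and 50% in WT. Npnt, encoding the integrin ligand nephronectin, was at 311 CPM in muscle-rich and 10.3 CPM in Pax7+ cells of KO, and at 422 CPM and 7.53 CPM in WT. In Crabp1/Dcn+ over Pax7+ cells of KO, where 27.9% of all genes passed (11.2% higher, 16.7% lower), 9 of 21 ligand and partner genes were higher and 6 lower, 4 of 21 basement membrane genes higher and 6 lower, and 4 of 24 adaptors higher and 2 lower.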

How the data were processed

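Single-cell 3' libraries were made with the Chromium v3.1 kit, per the labels' protocols. The deposited matrices hold unnormalized UMI counts, written by Cell Ranger 7.2.0, per the file headers. The submitters' processing notes also list GRCm39 and Seurat, with no role given, and the annotation release is not given in the sources used here. Cells were kept with at least 1000 genes and at most 15% mitochondrial UMIs, which 1888 KO and 873 WT barcodes failed. Scrublet (scanpy 1.11.5, expected rate 0.06) called 144 KO cells (2.49%) and 2 WT cells (0.0273%) doublets. These were removed, but the WT share is too low for the caller to have worked there, so doublets may remain. Whether doublets had been removed before deposit is not stated.

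Gates were applied in order: Crabp1 plus Dcn at 200 CPM of the cell or more, 11 sarcomere genes at 1% or more, Myog at 200 CPM of the cell or more, then Pax7 at 50 CPM of the cell or more. Of Pax7+ cells, 1408 in KO and 1667 in WT also had Myog at 20 CPM of the cell or more. Within a gate, counts of all cells were added up and scaled to 1000000 (CPM). CPM intervals are exact 95% Poisson intervals, ratios carry the exact conditional interval (scipy 1.17.1), and shares carry exact Clopper-Pearson intervals, all covering counting error only. The fold rule, a TMM scaling coded for this work and the thinning (seed 1) were checked on simulated data or with fixed seeds. Alternatives covered scaling, minimum level, fold threshold, cell weighting, cell filters, doublets, gate thresholds, depth and cell composition. Leaving out sarcomere-rich Crabp1/Dcn+ cells was added after seeing the data. So were the divisions of Pax7+ cells by proliferation genes, of Myog+ cells by Pax7 and of muscle-rich cells by sarcomere share. The gene rule, gates and lists were chosen with earlier results of these data known. Values of 1 member are not reported here. Promoter windows came from RefSeq on GRCm38.p6 and were used only as sequences.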

Additional observations from a re-analysis of the deposited data

Results flagged for a closer look

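Itga9 differed between the libraries in opposite directions in 2 gates: its KO over WT log2 ratio was -1.29 in Myog+ cells and 1.31 in muscle-rich cells. The difference between the gates was not tested, since each genotype has 1 library. Its muscle-rich log2 ratio was 0.98 when cells were weighted equally, just under the rule.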

How the results depend on the processing

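Of 115 recomputed counts of members passing the rule, 88 stayed within 1.5 times the original and 27 did not, and no called direction reversed. All 27 came from the level minimum or the fold threshold. Counts in 1 direction also moved under other settings: higher in KO over WT Myog+ cells gave 1 with TMM scaling and 1 with doubled gates, and lower in Myog+ over Pax7+ WT cells gave 1 with TMM scaling and 1 with halved gates. With a minimum of 1 CPM, KO over WT counts were 10 in all kept cells, 9 in Pax7+, 9 in Myog+ and 10 in muscle-rich cells, Myog+ over Pax7+ counts were 10 in KO and 8 in WT, and muscle-rich over Pax7+ counts 17 in KO and 18 in WT. With a minimum of 3 counts these were 14, 18, 17 and 16, then 16 and 16, then 24 and 25, and 19 for Crabp1/Dcn+ over Pax7+ cells. At 1.5-fold, KO over WT counts were 9 in all kept cells, 10 in Pax7+ and 9 in Myog+ cells, and Myog+ over Pax7+ in KO gave 10. At 3-fold, KO over WT counts were 2 in all kept cells, 1 in Myog+ and 2 in muscle-rich cells, Myog+ over Pax7+ gave 3 in KO and 3 in WT, and muscle-rich over Pax7+ in KO gave 7. By construction, a lower minimum admits more genes and a lower fold more calls.

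Among single members, TMM scaling, whose shift was 0.18 to 0.20 on the log2 scale for KO over WT in all kept, Pax7+ and Myog+ cells and -0.48 for muscle-rich over Pax7+ cells of KO, left Itga6 over all kept cells and in Myog+ cells at log2 0.97 and Itga7 in Pax7+ cells at 0.92, under 2-fold. Lama2 in Myog+ over Pax7+ WT cells was then at -0.91. In muscle-rich over Pax7+ cells it added Itga6 (1.40) and Itgb1 (1.00) in KO and Itga7 (1.07) and Itga9 (1.26) in WT. Weighting cells equally ended the calls of Itga9 in muscle-rich KO over WT cells (0.98) and of Itga7, Itgb5 and Lamb3 in muscle-rich over Pax7+ KO cells (0.98, 1.20 and 1.21), leaving 4 higher there. Halved gate thresholds ended Lamb2 in Myog+ over Pax7+ KO (-0.98), Lama2 in Myog+ over Pax7+ WT (-0.85) and Itga5 in muscle-rich over Pax7+ WT cells (0.99). Doubled thresholds ended Itga6 in Myog+ KO over WT cells (0.41), Lamb3 in muscle-rich over Pax7+ KO cells (1.49) and Itgb8 in Crabp1/Dcn+ cells (1.76). Keeping all deposited barcodes ended Lamb3 in muscle-rich over Pax7+ KO cells (1.33), and thinning ended Lamb3 in Myog+ over Pax7+ WT cells (1.86). Where a call ended at a value above 1, the higher level was under 10 CPM. Removing the highest 6% of doublet scores in each library, or shallow cells, ended no call. No paired analysis was possible because each genotype has 1 library. Leaving out a replicate was not possible for the same reason. Low-level members (under 10 CPM) are limited by depth, and no interval covers clone or culture variation.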

Other observations

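Barcodes that failed the cell filters held Itgb6 at 46.6 CPM in KO against 266 CPM in WT. Its muscle-rich levels were 71.7 CPM in KO and 171 CPM in WT, so neither value was 2-fold above the muscle-rich level of its library.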
